A study of Mus musculus with 22 samples.

Results

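Right ventricles taken from Prdm16 conditional knockout (cKO) mouse embryos were set against those of littermate controls at embryonic day E13.5. The members are the 8 bulk RNA sequencing libraries whose titles name the right ventricle, 4 cKO and 4 control, of 22 libraries in the series. The other 14 libraries are 4 cKO and 4 control left ventricles and 3 cKO and 3 control whole hearts, which were used here only to show where the right ventricle differs or whether a change is seen in separate tissue. The strain is given as C57BL/6 for every group, and the genetic manipulation as Prdm16 conditional knockout for the cKO and as Mock for the controls, which the titles call WT. The Cre driver, the deleted exons, the alleles that the controls carry and any pooling of embryos are not given in the sources used here. Nothing states that each library is a separate animal, so p-values measure the spread between these libraries, which may be technical.

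The protein made from Prdm16 binds DNA through zinc fingers, carries a PR domain, and is known for its part in brown fat identity, and human PRDM16 has been linked to left ventricular non-compaction and cardiomyopathy. The right ventricle is built mainly from progenitors of the second heart field, and the left ventricle mainly from the first heart field, where Tbx5 and Hand1 are active. At midgestation the ventricular wall divides into an outer compact layer, which proliferates, and inner trabeculae, which carry Nppa and later form conduction fibres.

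The right ventricle libraries held 17728403 to 22177481 reads assigned to transcripts. Ventricular markers were high in each library: Myl2, the ventricular regulatory myosin light chain, stood at 25140 to 30645 TPM (transcript abundance scaled to transcript length and library), while the atrial calcium pump regulator Sln stood at 0 to 1.57 TPM. Control 2 stood apart from the other 3 controls. Its 25 markers of cushion, valve and fibroblast mesenchyme summed to 2334 TPM, against 949 to 1038 TPM in controls 1, 3 and 4 and 957 to 1198 TPM in the cKO libraries. Meox1 reached 25.8 TPM in control 2, against 1.45 to 1.89 TPM in the other controls. The correlation of log2 CPM (counts scaled to the library total after TMM adjustment) between control 2 and the other controls was 0.980 to 0.982. It was 0.990 to 0.995 for all other replicate pairs. The part that mesenchymal tissue played in any result was not tested, and results are given with and without control 2.

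Prdm16 itself, on chromosome 4 (154316125 to 154636873, minus strand, GRCm38), stood at 3.19, 3.55, 3.88 and 3.80 TPM in cKO libraries 1 to 4, against 5.80, 6.66, 4.66 and 5.04 TPM in control libraries 1 to 4. Every cKO library lay below every control library. The means were 3.60 ± 0.31 TPM in cKO and 5.54 ± 0.88 TPM in control right ventricles (SD, n = 4 each), and Prdm16 fell by 0.75 on the log2 scale (SE 0.07, adjusted p = 2.96e-06, edgeR's quasi-likelihood test with Benjamini-Hochberg adjustment, as for all adjusted p-values below). The Prdm16 call held without each right ventricle library in turn but was lost in 3 of 23 alternative fits. The count covers the whole gene and all cells of the tissue, so the remaining reads cannot be told apart between undeleted cells and transcripts of a deleted allele. In a bulk sample, fewer cells of a type and less RNA per cell cannot be told apart either.

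Of 16448 genes tested, 1696 (10.3%) passed an adjusted p of 0.05, 1007 of them higher (6.12%) and 689 lower (4.19%) in the cKO. Only 219 (1.33%) of these calls moved by more than 1 on the log2 scale. Without control 2, 2418 of 16638 genes (14.5%) passed, 1233 higher (7.41%) and 1185 lower (7.12%). Counts of called list members given below are to be set beside these shares over all genes. Calls shared by both fits were 907 higher and 629 lower genes, 319 higher and 556 lower genes were called only without control 2, and no gene was called in opposite directions. Fitting the 8 right ventricle libraries without the left ventricles gave 1052 calls, and 2059 when control 2 was also left out. The median log2 fold change over all genes tested was -0.01 with all 8 libraries and 0.00 without control 2.

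With all 8 libraries, genes that define ventricular identity were mostly not called in the right ventricle. Without control 2, 3 of the 12 genes of the ventricular cardiomyocyte list were called higher and 5 lower, as given below. Hey2, a Notch-related repressor of atrial genes in the compact wall, stood at 63.5, 61.8, 54.9 and 62.9 TPM in the cKO libraries and 64.5, 57.3, 61.3 and 66.6 TPM in the controls. The groups overlapped, and the log2 fold change was -0.04 (SE 0.06, adjusted p = 0.732). Irx4, a ventricular homeobox gene, had 33.9, 36.9, 30.8 and 31.0 TPM in cKO and 34.1, 29.5, 31.9 and 35.1 TPM in control ventricles, a log2 fold change of 0.03 (adjusted p = 0.836). Hand2, a transcription factor needed for growth of the right ventricle, did not pass either, at 0.07 (adjusted p = 0.732), with control 2 highest of all libraries at 51.4 TPM.

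Of 12 tested genes of the ventricular cardiomyocyte list, 3 rose and none fell, and the list's median log2 fold change was -0.004. Over all genes tested, 6.12% were called higher and 4.19% lower, or 7.41% and 7.12% without control 2. Those that rose were Lrrc10, a leucine-rich repeat protein of cardiomyocytes (0.31, adjusted p = 0.000904), Smpx, a small muscle protein (0.38, adjusted p = 0.0191), and Mpped2, a metallophosphoesterase (0.21, adjusted p = 0.0264). The call of Smpx was lost without cKO 1 or cKO 3 (adjusted p up to 0.0651), and that of Mpped2 without cKO 1, cKO 2, control 3 or control 4 (up to 0.0879). Leaving out control 2 left these 3 genes called and added 5 lower ones: Myl2 (-0.22, adjusted p = 0.00415), Myl3 (-0.27), Myh7 (-0.17), Irx3 (-0.26) and Pln (-0.23). Myl2 stood at 26308, 28428, 26611 and 30645 TPM in the cKO libraries against 30143, 25140, 29546 and 29281 TPM in the controls. The cKO and control values overlapped, with control 2 the lowest library of all. With control 2 included the Myl2 change was -0.12 (adjusted p = 0.387).

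Most genes of the atrial list rose. Of 14 list members, 10 were higher and none lower with all 8 libraries, with a median log2 fold change of 0.75, and the counts were the same without control 2. Over all genes tested, 6.12% were called higher with all libraries and 7.41% without control 2. Nppa, which encodes atrial natriuretic peptide, stood at 5136, 3319, 4804 and 4469 TPM in cKO and 2180, 1440, 1636 and 2627 TPM in control right ventricles. The lowest cKO library lay above the highest control, and the log2 fold change was 1.17 (SE 0.17, adjusted p = 0.000264). Myl7, the atrial regulatory myosin light chain, reached 2441, 2234, 2338 and 2543 TPM in the cKO against 1275, 1633, 1177 and 1162 TPM in controls. Control 2 was the highest control but still below each cKO library, and Myl7 rose by 0.88 (SE 0.11, adjusted p = 3.5e-05).

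Tbx5, the T-box transcription factor of the first heart field, the atria and the left ventricle, had 21.1, 17.4, 11.9 and 14.8 TPM in the cKO and 10.2, 6.58, 7.46 and 9.23 TPM in controls. The groups did not overlap, and Tbx5 rose by 0.89 (SE 0.12, adjusted p = 0.000135). Myl1, an alkali light chain of fast skeletal muscle that embryonic atria also use, rose by 1.44 (adjusted p = 6.85e-08) and Myl4, the atrial alkali light chain, by 0.24 (adjusted p = 0.00817). Of its 4 potassium channels, Kcnk3, a background channel, rose by 1.29 (adjusted p = 2.81e-07), and Kcnj3 and Kcnj5, which form the acetylcholine-gated channel, by 0.88 and 0.76, while Kcna5 was not called (-0.26, adjusted p = 0.269). Pam, the enzyme that amidates peptide hormones and is abundant in atrial granules, rose by 0.42, and Stard10, a lipid transfer protein, by 0.74. The Stard10 call was lost without cKO 2 (0.60, adjusted p = 0.057). The members that did not pass were Sln, Kcna5, Nr2f1 and Nr2f2, and Nr2f2, the orphan receptor that sets atrial identity, had 15.5 to 17.5 TPM in cKO and 11.7 to 15.9 TPM in control ventricles.

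The summed level of 14 markers of great vessels, atria and nodal tissue, of which Myl7 makes up the most, was 2349 to 2665 TPM in cKO and 1262 to 1731 TPM in control libraries. Of its 12 tested members, Myl7 and Angpt1, a ligand of endothelial receptors, were called, both higher, and the Angpt1 call was lost without control 2 (0.24, adjusted p = 0.0914) and without any other 1 library but cKO 4 and control 3 (up to 0.161). Without Myl7 the other markers of the list summed to 114 to 124 TPM in cKO and 97.4 to 109 TPM in control libraries, without overlap. The part of attached atrial tissue in the rise of the atrial list was not tested.

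**Figure D1:**
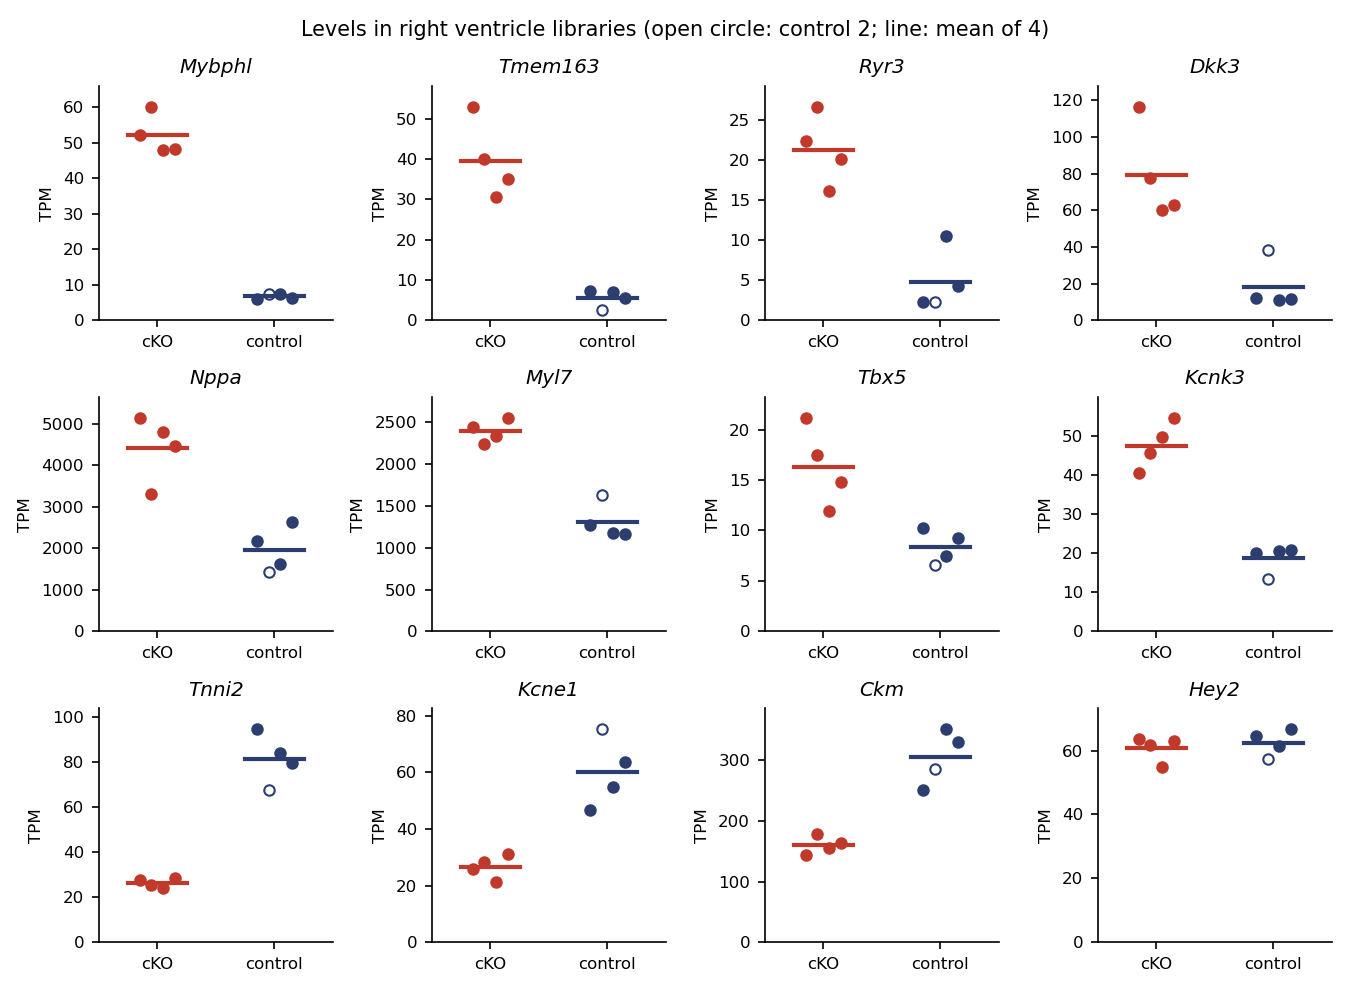
TPM of 12 genes in the 4 cKO (left) and 4 control (right) right ventricle libraries, each axis starting at 0, with a line at the mean and control 2 as an open circle. Mybphl, Tmem163, Ryr3, Dkk3, Nppa, Myl7, Tbx5 and Kcnk3 were higher in every cKO library than in any control, Tnni2, Kcne1 and Ckm were lower in every cKO library, and Hey2 overlapped.

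The promoter windows of 4 of the genes named here are shown: Nppa, Mybphl and Myl7, which rose, and Perm1, which fell. Each of the 4 holds at least 1 of the words searched for, which is not typical of the leading genes. Among the largest falls with a window, only that of Perm1 held any word. Windows of several large rises, among them Ildr2, Epha4, Gpx3 and Col8a1, held none. Each window runs from 250 bases before to 50 bases after the RefSeq start (GRCm38.p6), 5′ to 3′ on the gene's strand. The capitals mark matches to short words that are known as sites of cardiac factors, or to the TATA word, which is not particular to them. These windows are chr4:148000472-148000771 (plus strand) for Nppa, chr3:108364661-108364960 (plus) for Mybphl, chr11:5898733-5899032 (minus) for Myl7 and chr4:156215677-156215976 (plus) for Perm1.
Nppa: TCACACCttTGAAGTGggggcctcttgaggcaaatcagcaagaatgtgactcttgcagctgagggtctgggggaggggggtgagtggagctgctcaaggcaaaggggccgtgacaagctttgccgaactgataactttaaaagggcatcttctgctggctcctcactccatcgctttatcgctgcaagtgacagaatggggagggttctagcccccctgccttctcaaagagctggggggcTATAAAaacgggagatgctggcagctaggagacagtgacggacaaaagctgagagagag
Mybphl: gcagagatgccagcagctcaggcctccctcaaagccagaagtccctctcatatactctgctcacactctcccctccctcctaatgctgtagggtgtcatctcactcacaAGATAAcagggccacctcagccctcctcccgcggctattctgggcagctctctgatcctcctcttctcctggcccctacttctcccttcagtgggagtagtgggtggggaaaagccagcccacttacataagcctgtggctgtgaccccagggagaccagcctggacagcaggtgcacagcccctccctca
Myl7: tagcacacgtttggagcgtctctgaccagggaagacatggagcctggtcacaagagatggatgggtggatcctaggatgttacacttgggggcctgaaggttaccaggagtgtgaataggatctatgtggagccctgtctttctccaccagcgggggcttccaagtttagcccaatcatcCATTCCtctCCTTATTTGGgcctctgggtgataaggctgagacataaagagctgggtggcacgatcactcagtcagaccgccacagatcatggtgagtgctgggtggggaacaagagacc
Perm1: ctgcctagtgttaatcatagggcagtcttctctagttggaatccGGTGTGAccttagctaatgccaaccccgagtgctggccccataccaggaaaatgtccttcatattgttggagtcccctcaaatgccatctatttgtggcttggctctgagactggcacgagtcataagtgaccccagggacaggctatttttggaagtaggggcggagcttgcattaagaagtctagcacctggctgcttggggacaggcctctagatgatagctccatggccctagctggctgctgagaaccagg

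In the Nppa window, the capitals mark a T-box word (GGTGTGA, on the opposite strand), an NK2 word (TNAAGTG) and a TATA word (TATAAA). The Mybphl window holds a GATA word (AGATAA), the Myl7 window an MCAT word (CATTCC) followed by a CArG box, and the Perm1 window a T-box word. Both strands were searched, and a match is a description of letters only. Among genes with a window, the T-box word was found in 2.61% of 765 genes called higher, 3.14% of 509 called lower and 3.38% of the 11602 tested. The MCAT word was found in 15.4%, 9.43% and 12.4% of the same 3 sets, the GATA word in 4.71%, 6.88% and 6.87%, and the NK2 word in 7.84%, 7.27% and 8.52%. The TATA word was found in 8.76%, 7.07% and 7.66%, the CArG box in 1.70%, 1.96% and 1.34% and the MEF2 box in 1.83%, 2.75% and 2.04%. No test was made of these shares.

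The largest rises with a mean log2 CPM of at least 2 were in Tmem163, Ppp1r17 and Mybphl. All 20 of the largest rises were by construction called with and without control 2 and free of overlap, which 880 of the genes tested were in this direction (5.35%) and 844 in the other (5.13%). Mybphl, a myosin binding protein related to Mybph and found in atria and conduction cells, stood at 52.2, 59.9, 47.9 and 48.3 TPM in the cKO against 6.01, 7.43, 7.39 and 6.26 TPM in controls. The 4 control values lay within 1.42 TPM of each other, and Mybphl rose by 2.94 (SE 0.08, adjusted p = 2.25e-13). Tmem163, a zinc transporter of vesicles, had 52.8, 39.9, 30.5 and 35.0 TPM in cKO and 7.16, 2.68, 7.04 and 5.61 TPM in control libraries, a rise of 3.12 (SE 0.17, adjusted p = 2.99e-09). Control 2 was the lowest library, and without it the rise was 2.93.

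Ryr3, a calcium release channel, stood at 22.4, 26.6, 16.2 and 20.1 TPM in the cKO and 2.24, 2.26, 10.5 and 4.29 TPM in controls. Control 3 was the highest control by TPM yet below all cKO libraries, and Ryr3 rose by 2.50 (SE 0.11, adjusted p = 1.73e-10). The test was made on counts, so its SE does not describe the spread of these TPM. Dkk3, a secreted protein of the Dickkopf family, had 116, 77.6, 60.2 and 62.9 TPM in the cKO and 12.5, 38.3, 11.1 and 11.7 TPM in controls. Control 2 was about midway between the other controls and the lowest cKO library, and the rise was 2.12 with it (SE 0.30, adjusted p = 0.000161) and 2.71 without it. Ppp1r17, a phosphatase inhibitor, had 22.0, 17.7, 7.08 and 10.5 TPM in cKO and 1.58, 3.19, 0.594 and 1.61 TPM in control ventricles, a rise of 3.06 (SE 0.36, adjusted p = 2.85e-05). The cKO libraries differed widely among themselves, with cKO 1 highest and cKO 3 lowest.

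The other large rises were Tiam2, a Rac exchange factor (2.60), Pcsk6, a proprotein convertase of the left-sided heart (1.99), Cacna2d2, a calcium channel subunit (1.90), and Ildr2, an immunoglobulin-like receptor (1.83). Ppp1r1b, the phosphatase inhibitor DARPP-32 (1.81), the ephrin receptor Epha4 (1.80), the zinc importer Slc39a8 (1.70) and Abcc8, the sulfonylurea receptor of potassium channels that is used in mouse atria (1.67), followed. Cpne5, a copine of Purkinje fibres (1.61), the zinc finger repressor Zfp536 (1.55), the matrix protein Adamtsl2 (1.54), the secreted peroxidase Gpx3 (1.53) and the collagen Col8a1 (1.50) completed the group with Lyz2 (1.69) and Lyz1 (1.62). Gpx3 was the most abundant of these, at 1143, 992, 885 and 881 TPM in the cKO against 323, 355, 332 and 336 TPM in controls, without overlap (SE 0.06, adjusted p = 5.36e-11). Pcsk6 and Cacna2d2 were highest in cKO 1 and cKO 2: Cacna2d2 had 74.5, 58.2, 28.9 and 28.1 TPM in the cKO and 9.40 to 15.1 TPM in controls.

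The lysozymes Lyz1 and Lyz2 are near-identical copies, so reads may have been split between them by the quantification. Lyz2, which marks macrophages, stood at 172, 90.5, 55.3 and 46.0 TPM in the cKO and 33.2, 22.6, 29.1 and 27.1 TPM in controls. It was the only one of 16 tested macrophage and leukocyte markers to be called. The 18 markers of that list summed to 124 to 243 TPM in the cKO and 86.9 to 104 TPM in controls, with cKO 1 highest. Without Lyz2 itself, the sums were 68.3 to 85.4 TPM in the cKO and 64.3 to 75.2 TPM in controls, which overlapped. The part of macrophages in the lysozyme values was not tested.

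Among the largest falls was Tnni2, the fast skeletal troponin I, which stood at 27.8, 25.7, 24.1 and 28.5 TPM in the cKO and 94.6, 67.7, 84.3 and 79.9 TPM in controls. The groups lay far apart relative to their spread, and Tnni2 fell by 1.58 (SE 0.15, adjusted p = 2.87e-06). Kcne1, the regulatory subunit of the slow delayed rectifier potassium channel, had 26.0, 28.4, 21.2 and 31.1 TPM in cKO and 46.6, 75.2, 54.7 and 63.5 TPM in control libraries, and fell by 1.18 (SE 0.14, adjusted p = 2.53e-05). Perm1, a muscle regulator that acts with the PGC-1 coactivators, had 1.05, 1.45, 1.36 and 1.48 TPM in the cKO and 2.45, 2.42, 4.30 and 3.62 TPM in controls, and fell by 1.27 (adjusted p = 0.000412). Neither gene overlapped between the groups.

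Among genes with a mean log2 CPM of at least 2, Psd, an exchange factor for ARF6, had the largest fall, at 1.41, 2.99, 1.81 and 3.30 TPM in the cKO and 6.21, 17.7, 7.35 and 6.95 TPM in controls. Control 2 was the highest library, and the fall was -1.94 with it (SE 0.31, adjusted p = 0.000499) and -1.55 without it. Next were Lrtm1, a leucine-rich repeat membrane protein (-1.71), Nkd2, an inhibitor of Wnt signalling (-1.44), Efr3b, which anchors a lipid kinase at the plasma membrane (-1.36), and Asb11, a muscle ubiquitin ligase adaptor (-1.23). Agtr1a, the angiotensin receptor (-1.16), Apln, the ligand apelin (-1.14), Igfbp3, which binds insulin-like growth factors (-1.08), and Fndc5, the precursor of irisin (-1.07), fell as well. Falls were also seen in Gtsf1 (-1.17), Gabra4 (-1.11), Grhl3 (-1.09), Stmn4 (-1.09), Lynx1 (-1.07), Ampd3, an AMP deaminase (-1.06), and Chst11, a chondroitin sulfotransferase (-0.99). The adjusted p of the genes named in this group from Psd onwards lay between 2.58e-08 for Efr3b and 0.00915 for Stmn4.

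Isoforms of striated muscle moved in both directions. Of 17 tested fast and skeletal isoforms, 4 rose and 4 fell, with the same counts without control 2. The shares over all genes tested were 6.12% higher and 4.19% lower. Besides Mybphl and Myl1, the rises were Tnnt1, the slow skeletal troponin T (0.87, adjusted p = 3.42e-05), and Myh8, the perinatal myosin heavy chain (2.71, adjusted p = 0.00679), which was scarce at 0.828 to 1.07 TPM in the cKO and 0.0636 to 0.218 TPM in controls. Tnnt1 had 904, 888, 1020 and 1036 TPM in the cKO and 571, 520, 437 and 650 TPM in controls, without overlap. Besides Tnni2, the falls were Ckm, the muscle creatine kinase (-0.92, adjusted p = 2.95e-05), Acta1, skeletal actin (-0.39, adjusted p = 0.0140), and Mylpf, a fast regulatory light chain (-0.69, adjusted p = 0.0479). The Acta1 call was lost without cKO 1 or cKO 2 (adjusted p up to 0.0540), and the Mylpf call without any 1 library other than control 2 (up to 0.130).

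Ckm stood at 144, 178, 156 and 163 TPM in the cKO and 251, 285, 350 and 329 TPM in controls, with no overlap. Among 31 genes of the sarcomere and Z-disc, 5 rose and 1 fell with all libraries, and 4 rose and 9 fell without control 2. All genes tested gave 6.12% higher and 4.19% lower, or 7.41% and 7.12% without control 2. Synpo2l, a Z-disc protein, rose by 0.28 (adjusted p = 0.00502). The cardiac myosin heavy chains were not called with all 8 libraries: Myh6 changed by -0.17 (adjusted p = 0.134) and Myh7 by -0.13 (adjusted p = 0.151), and Myh7 was called without control 2 (-0.17, adjusted p = 0.0233).

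Genes of calcium handling and excitation moved in both directions. Of 27 calcium handling genes, 6 rose and 1 fell, and without control 2, 6 rose and 4 fell. The shares over all genes tested were 6.12% and 4.19%, and 7.41% and 7.12% without control 2. Among proteins of the calcium store, Casq2, the calcium buffer calsequestrin, rose by 0.34 (adjusted p = 0.00987), Trdn, triadin, by 0.33 (adjusted p = 0.00280), and Hrc, the histidine-rich calcium binding protein, by 0.48 (adjusted p = 0.00138). Casq2 stood at 238, 210, 216 and 235 TPM in cKO and 133, 155, 183 and 188 TPM in control ventricles, with each cKO library above each control.

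Of 28 potassium, sodium and pacemaker channel genes, 6 rose and 5 fell with all libraries, beside 6.12% and 4.19% of all genes tested. Among subunits of ATP-sensitive potassium channels, Abcc8 rose as given above, the receptor Abcc9 by 0.55 (adjusted p = 0.00107) and the pore subunit Kcnj11 by 0.32 (adjusted p = 0.00319). Kcnj8, the other pore subunit, chosen here after its values were seen, was not called (-0.33, adjusted p = 0.215), with 1.43, 1.67, 0.946 and 1.39 TPM in the cKO and 1.56, 1.57, 1.76 and 1.93 TPM in controls, and it rose by 1.16 in the left ventricle (difference left minus right 1.49, adjusted p = 0.00176). Abcc9 had 48.1, 42.8, 36.8 and 39.8 TPM in the cKO and 29.5, 23.3, 29.5 and 31.7 TPM in controls, without overlap. Kcnj2, the main inward rectifier of ventricular muscle, had 2.54, 2.82, 2.21 and 2.94 TPM in the cKO and 3.80, 5.08, 5.21 and 4.10 TPM in controls. It did not overlap and fell by 0.83 (SE 0.10, adjusted p = 2.46e-05). The sodium channel subunit Scn4b, chosen here after its values were seen, was scarce, at 0, 0.0116, 0.0113 and 0 TPM in the cKO against 0.199, 0.0423, 0.117 and 0.0547 TPM in controls (adjusted p = 0.00228), and the size of its fall depends on a few reads.

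At the intercalated disc, the intermediate filament gene Des rose by 0.36 (adjusted p = 0.000645), while Popdc3 and Bves, membrane proteins of the Popeye family, fell by 0.43 and 0.29 (adjusted p = 0.00311 and 0.00368). In all, 2 of 18 disc genes rose and 3 fell, and without control 2, 2 rose and 7 fell. Gja5, the gap junction protein of trabeculae and atria, was not called (-0.32, adjusted p = 0.397), with 64.5, 34.5, 26.2 and 36.3 TPM in the cKO and 72.7, 37.5, 51.4 and 57.2 TPM in controls. Its groups overlapped, and without cKO 1, the highest cKO library, it was called lower (-0.63, adjusted p = 0.0214). Nppb, which encodes the B-type natriuretic peptide, was not called either (0.12, adjusted p = 0.763), nor was Bmp10, a trabecular growth factor (0.19, adjusted p = 0.512). Other trabecular genes did move. Of 19 tested genes of the trabecular and conduction list, 4 rose (Nppa, Ryr3, Cpne5 and Slit3) and 1 fell. Without control 2, 7 rose and 2 fell. The disc and trabecular counts stand beside 6.12% higher and 4.19% lower over all genes tested, or 7.41% and 7.12% without control 2.

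In the lists of energy metabolism more genes were called lower than higher, and how many passed depended on control 2. Over all genes tested, 4.19% were called lower with all libraries and 7.12% without control 2. Of 33 tested genes of fatty acid uptake and oxidation, none rose and 17 fell (median log2 fold change -0.26), and without control 2, 25 fell (median -0.27). Acadm, the medium-chain acyl-CoA dehydrogenase, had 86.4, 91.5, 81.2 and 82.6 TPM in the cKO and 114, 121, 119 and 127 TPM in controls. The gap between the groups was wider than the range within either, and Acadm fell by 0.44 (SE 0.06, adjusted p = 4.85e-05). Acsl1, which activates long-chain fatty acids, fell by 0.59 (adjusted p = 1.26e-05), Hadhb of the trifunctional protein by 0.36 (adjusted p = 0.00117), the carnitine acetyltransferase Crat by 0.33 (adjusted p = 0.000950) and the enoyl-CoA isomerase Eci1 by 0.28 (adjusted p = 0.000730).

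Of 31 genes of the TCA cycle and pyruvate dehydrogenase, none rose and 10 fell, and without control 2, 25 fell. Pdk3, a kinase that inhibits pyruvate dehydrogenase, fell by 0.47 (adjusted p = 0.000735) and Dld, a subunit of that complex, by 0.30 (adjusted p = 0.00485). Dld had 103, 102, 106 and 108 TPM in cKO and 142, 120, 143 and 132 TPM in control libraries, with control 2 the lowest control. For 46 genes of oxidative phosphorylation, 1 rose and 6 fell with all libraries (median -0.14), against 1 and 41 without control 2 (median -0.21). Sdha of complex II fell by 0.23 and Cyc1 of complex III by 0.24 (adjusted p = 0.0216 for each). The Sdha call was lost without cKO 1, cKO 2, control 1, control 3 or control 4 (adjusted p up to 0.0785) and the Cyc1 call without cKO 1, control 1, control 3 or control 4 (up to 0.0772), while without control 2 the adjusted p was 3.25e-05 for Sdha and 8.21e-05 for Cyc1. The riser was Cox6a2, the heart and muscle form of a complex IV subunit (0.53, adjusted p = 8.81e-06), at 443, 438, 375 and 398 TPM in the cKO and 287, 265, 287 and 308 TPM in controls, without overlap.

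Transcripts of the mitochondrial genome took 6.17 ± 0.37% of reads in the cKO and 6.97 ± 0.32% in controls (SD, n = 4 each; exact permutation test, two-sided, p = 0.0286, the smallest that 4 against 4 can give). With any 1 library left out the difference stayed between -0.91 and -0.63 percentage points, at the smallest exact p then possible, 0.0571. Of the 13 protein-coding genes among them, mt-Co2 alone was called with all 8 libraries (-0.23, adjusted p = 0.0152). Its call was lost without cKO 4 or control 3 (adjusted p up to 0.0557). Without control 2, 3 of the 13 were called, all lower. In addition, 1 mitochondrial ribosomal RNA gene was called lower with all 8 libraries.

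Among 19 regulators of mitochondria, none rose and 6 fell. Ppargc1a and Ppargc1b, the PGC-1 coactivators, fell by 0.27 and 0.41 (adjusted p = 0.00487 and 0.00321), the nuclear receptor Esrrg by 0.44 (adjusted p = 6.91e-05), and Ppara, the receptor that drives fatty acid genes, by 1.07 (adjusted p = 0.00100). Ppara TPM were 0.904, 0.787, 0.524 and 1.78 in the cKO and 1.36, 0.896, 1.59 and 1.12 in controls. The TPM overlapped, although the test on counts passed. In the glycolysis and glycogen list, 2 of 34 genes rose, beside 6.12% of all genes tested, and 6 fell with all libraries. Without control 2, 2 rose and 18 fell. The rises were Aldoc, a brain-type aldolase (1.02, adjusted p = 0.000154), and Ppp1r3c, which targets a phosphatase to glycogen (0.33, adjusted p = 0.00593).

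Among brown and beige fat genes, for which Prdm16 is best known, Ucp1 and 8 others of 22 were too scarce to test. Of the 13 tested, 3 rose and 2 fell, and the largest change was in Adrb3, a beta-adrenergic receptor, which had 2.24, 2.58, 2.11 and 2.02 TPM in the cKO and 0.825, 0.636, 0.755 and 0.955 TPM in controls. It rose by 1.40 (SE 0.16, adjusted p = 1.68e-05) without overlap. Of 24 tested PR-domain genes and cofactors, Prdm16 and Prdm1 were called, both lower. The counts of both lists stand beside 6.12% higher and 4.19% lower over all genes tested. Prdm1, another PR-domain repressor, stood at 0.166, 0.207, 0.154 and 0.136 TPM in the cKO and 0.424, 0.413, 0.309 and 0.307 TPM in controls (-1.06, adjusted p = 0.00366).

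**Figure D2:**
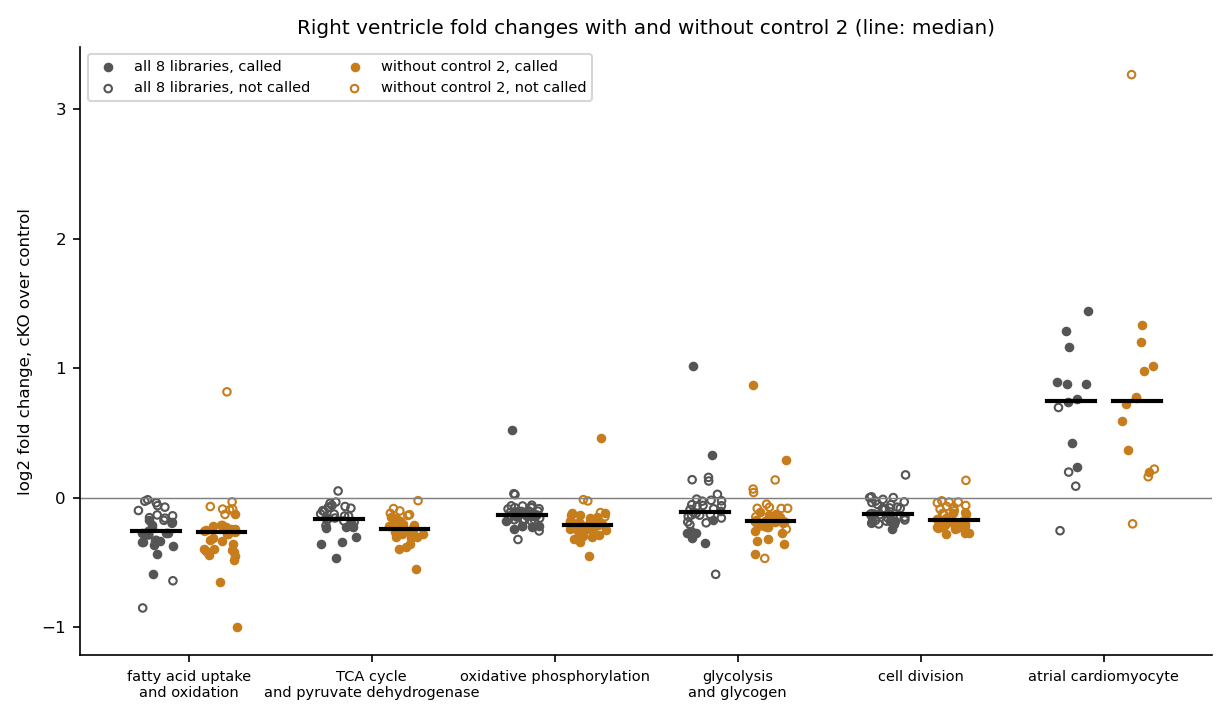
Log2 fold change, cKO over control, of the tested members of 6 gene lists in the right ventricle, with all 8 libraries (grey) and without control 2 (orange). Filled points were called, open points were not, and lines are medians, which for oxidative phosphorylation were -0.14 with all libraries and -0.21 without control 2, while the atrial list had 0.75 in both.

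Cell division genes were called in 1 direction only. Of 38 tested, none rose and 5 fell with all libraries (median -0.13), and 23 fell without control 2 (median -0.17). Over all genes tested, 4.19% were called lower with all libraries and 7.12% without control 2. Mki67, a proliferation marker, had 47.8, 43.6, 41.1 and 46.1 TPM in the cKO and 54.9, 52.2, 51.5 and 52.4 TPM in controls. The groups did not overlap, and the fall was -0.20 (SE 0.04, adjusted p = 0.00246). The Mki67 call held without each library in turn but was lost in 3 of 23 alternative fits. Rrm1, a subunit of ribonucleotide reductase, fell by 0.24 (adjusted p = 0.00396). Kif11, Prc1 and Top2a, which act on the spindle and on DNA, each fell by 0.18 (adjusted p = 0.0216, 0.0253 and 0.0374). The Kif11 call was lost without cKO 1, cKO 2, control 1 or control 3 (adjusted p up to 0.0761), the Prc1 call without any 1 library but cKO 3 and control 2 (up to 0.0894), and the Top2a call without any but cKO 1 and control 2 (up to 0.123).

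Of 23 D-type cyclins, inhibitors and p53 targets, 6 rose and none fell. Ccnd2, a cyclin that promotes entry into S phase, stood at 160, 167, 220 and 153 TPM in the cKO and 76.5, 104, 77.5 and 92.9 TPM in controls, a rise of 0.96 (SE 0.05, adjusted p = 2.34e-09) without overlap. The inhibitors Cdkn1c and Cdkn1a rose by 0.45 and 0.39 (adjusted p = 0.000351 and 0.0113), and the p53 targets Eda2r and Zmat3 by 0.66 and 0.31 (adjusted p = 0.00516 and 0.000412). Mycn, a driver of compact wall proliferation, had 14.6, 13.7, 11.8 and 13.8 TPM in cKO and 16, 15.5, 14.3 and 15 TPM in control ventricles, with cKO 1 above control 3. Its change of -0.16 had an adjusted p of 0.0633 with all libraries, and it was called without control 2 (-0.19, adjusted p = 0.0272) and without cKO 1 (-0.20, adjusted p = 0.0443). Of the 14 compact wall genes, 2 rose (Ccnd2 and Fgfr1, a growth factor receptor, 0.29) and 1 fell, the Wnt receptor Fzd1. Fzd1 had 8.31, 8.36, 8.26 and 8.77 TPM in the cKO and 10.3, 21.6, 10.8 and 10.8 TPM in controls, and fell by 0.63 with control 2 (adjusted p = 0.0166) and by 0.35 without it (adjusted p = 0.00312).

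The BMP, Wnt, FGF and semaphorin lists held more higher than lower calls, as did all genes tested (6.12% against 4.19%). Of 37 BMP and TGF-beta genes, 7 rose and 1 fell, and 13 rose and 1 fell without control 2. Nog, the secreted BMP antagonist noggin, had 2.30, 1.79, 1.60 and 1.61 TPM in the cKO and 0.424, 1.13, 0.568 and 0.512 TPM in controls, with control 2 highest among them. Nog rose by 1.52 (SE 0.28, adjusted p = 0.00165), and Bmp5, a ligand, rose by 0.42 (adjusted p = 0.00107). Of 30 Wnt genes, 4 rose and 1 fell. The ligand Wnt5a of the second heart field rose by 0.68 (adjusted p = 7.83e-06), with 22.6, 27.5, 19.2 and 27.3 TPM in the cKO and 12.2, 20.7, 13.8 and 14.2 TPM in controls. The groups overlapped through control 2, which lay above cKO 3.

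Of 27 FGF, IGF and neuregulin genes, 5 rose and 2 fell, among them the ligands Fgf1 (0.43, adjusted p = 0.00644) and Nrg2 (1.32, adjusted p = 0.000161) as rises. Of 34 semaphorin and axon guidance genes, 7 rose and 2 fell. Beside Epha4 and Tiam2, these included the ligand Sema4d (0.45, adjusted p = 0.000776), the semaphorin receptor Plxna4 (0.46, adjusted p = 9.8e-06) and the repellent Slit3 (0.48, adjusted p = 0.000633). The hypoxia list gave 3 rises and 5 falls of 22 genes, with Adm, the vasodilator adrenomedullin, higher (0.76, adjusted p = 0.00765) and Vegfa, the endothelial growth factor, lower (-0.32, adjusted p = 0.00431). Notch genes gave 1 rise and 2 falls of 18, beside 6.12% higher and 4.19% lower over all genes tested.

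Among markers of the first heart field and left ventricle, 4 of 9 rose and none fell: Tbx5, Nppa, Pcsk6 and Ntm, a cell adhesion molecule (0.85, adjusted p = 0.000101). Hand1, also of this list, was not called (-0.18, adjusted p = 0.343), with 7.08, 8.95, 6.81 and 6.43 TPM in the cKO and 6.38, 12.2, 6.46 and 7.35 TPM in controls. Of 14 genes of the second heart field and outflow, 1 rose and 2 fell. Rgs5, a regulator of G protein signalling in pericytes, chosen here after its values were seen, had 0.289, 0.268, 0.159 and 0.291 TPM in the cKO and 0.665, 6.02, 0.552 and 0.903 TPM in controls. All controls lay above all cKO libraries, and the change was -2.97 with control 2 (adjusted p = 0.00525) and -1.49 without it (adjusted p = 0.000587). Among 32 cardiac transcription factors, 2 rose, Tbx5 and Gata5 (0.70, adjusted p = 0.00305), and 3 fell. These counts stand beside 6.12% higher and 4.19% lower over all genes tested.

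**Figure D3:**
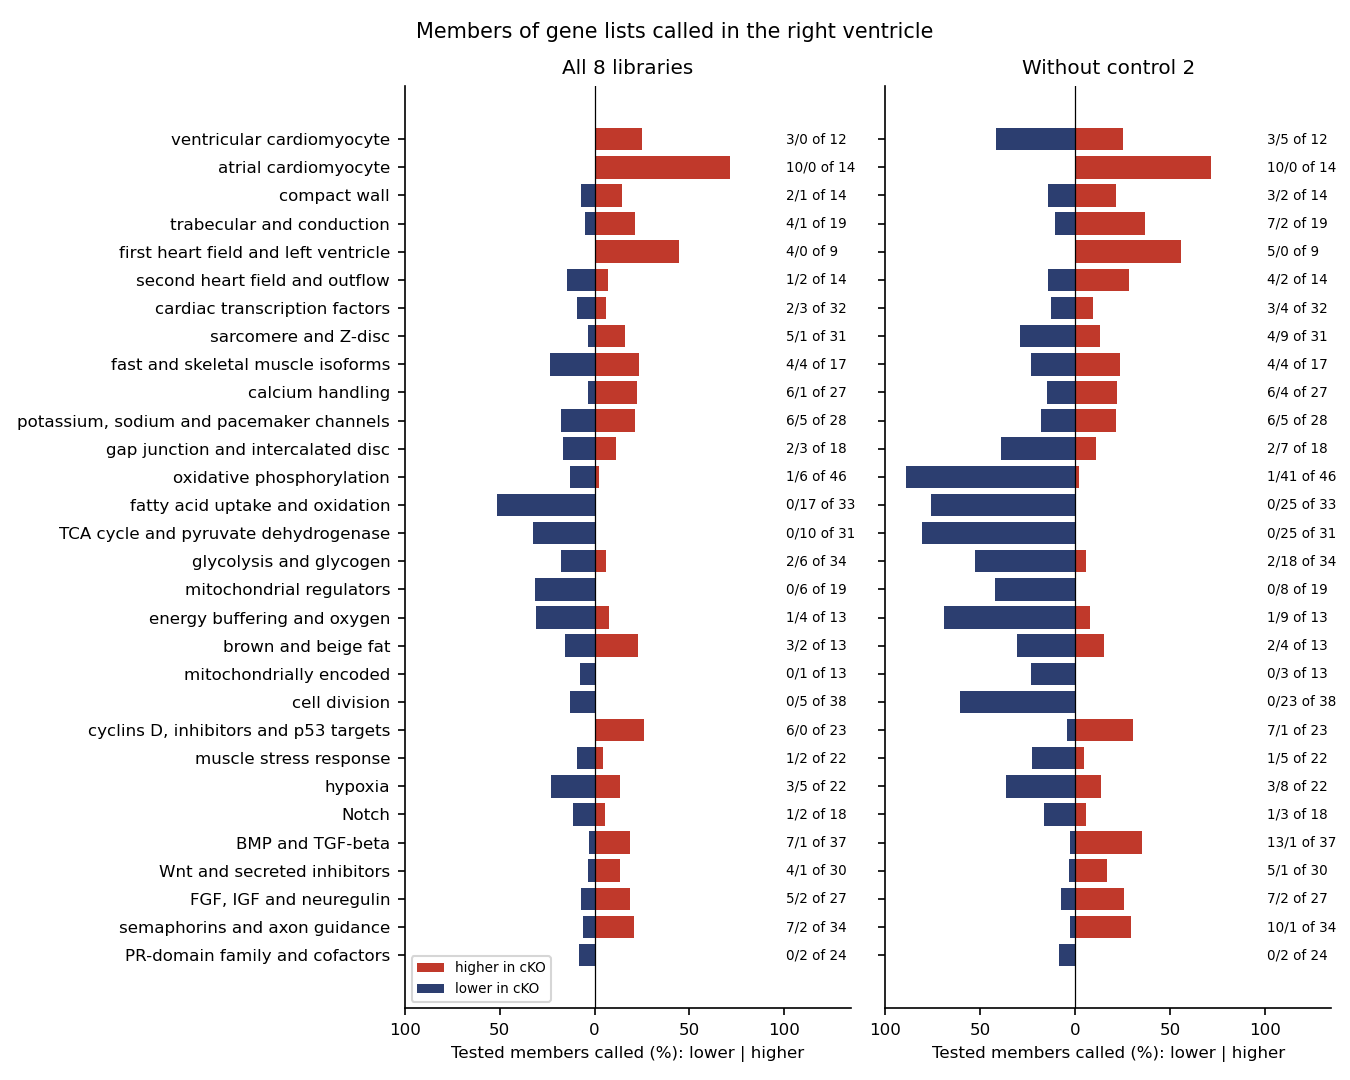
Share of the tested members of 30 gene lists called higher (right of 0, red) or lower (left of 0, blue) in cKO right ventricles, with counts printed as higher/lower of tested, for all 8 libraries and without control 2. The atrial list had 10 of 14 members higher in both, while oxidative phosphorylation had 6 of 46 lower with all libraries and 41 of 46 without control 2, and cell division 5 and 23 of 38.

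The sums of endothelial, epicardial, smooth muscle, and liver and lung markers overlapped between the groups, and so did those of blood. The 19 erythroid markers used here summed to 32143 to 61382 TPM in the cKO and 13841 to 32932 TPM in controls, and haemoglobin genes took 1.56 ± 0.48% of reads in the cKO and 0.76 ± 0.33% in controls (SD, n = 4 each; exact permutation test, two-sided, p = 0.0571). Of 19 tested erythroid markers, 6 were higher with all libraries and 2 without control 2. Endothelial markers summed to 920 to 979 TPM in the cKO and 855 to 952 TPM in controls, with 4 of 20 higher and 2 lower. Tie1, an endothelial receptor, rose by 0.25 (adjusted p = 0.000562), whereas Apln fell as given above.

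Epicardial markers summed to 238 to 296 TPM in the cKO and 255 to 301 TPM in controls. Wt1, the epicardial transcription factor, rose by 0.40 (adjusted p = 0.00571). In all, 1 of 17 markers was higher and 1 lower, beside 6.12% and 4.19% of all genes tested. Smooth muscle and pericyte markers summed to 1823 to 2221 TPM in the cKO and 1958 to 2428 TPM in controls, with control 2 highest. Of 16 tested, 3 were higher and 2 lower, Rgs5 among the lower ones. Without control 2, 5 were higher and 2 lower. Of 24 tested mesenchymal markers, none was higher and only Vcan, a matrix proteoglycan, was lower (-0.38, adjusted p = 0.0452). That call was lost without control 2 (-0.20, adjusted p = 0.0547) and without any cKO library or control 3 (up to 0.108). The median of these markers was -0.54 with control 2 and 0.18 without it. Neural and neural crest markers summed to 64.8 to 69.1 TPM in the cKO, 70.1 to 73.0 TPM in controls 1, 3 and 4 and 98.7 TPM in control 2, and Gap43, a growth cone protein, fell by 0.45 (adjusted p = 0.000871). Foxd3 was listed at 0 throughout. Liver and lung markers summed to 3.69 to 5.95 TPM in the cKO and 3.83 to 9.49 TPM in controls, with Sftpc at 0 throughout and none of the 5 tested called.

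**Figure D4:**
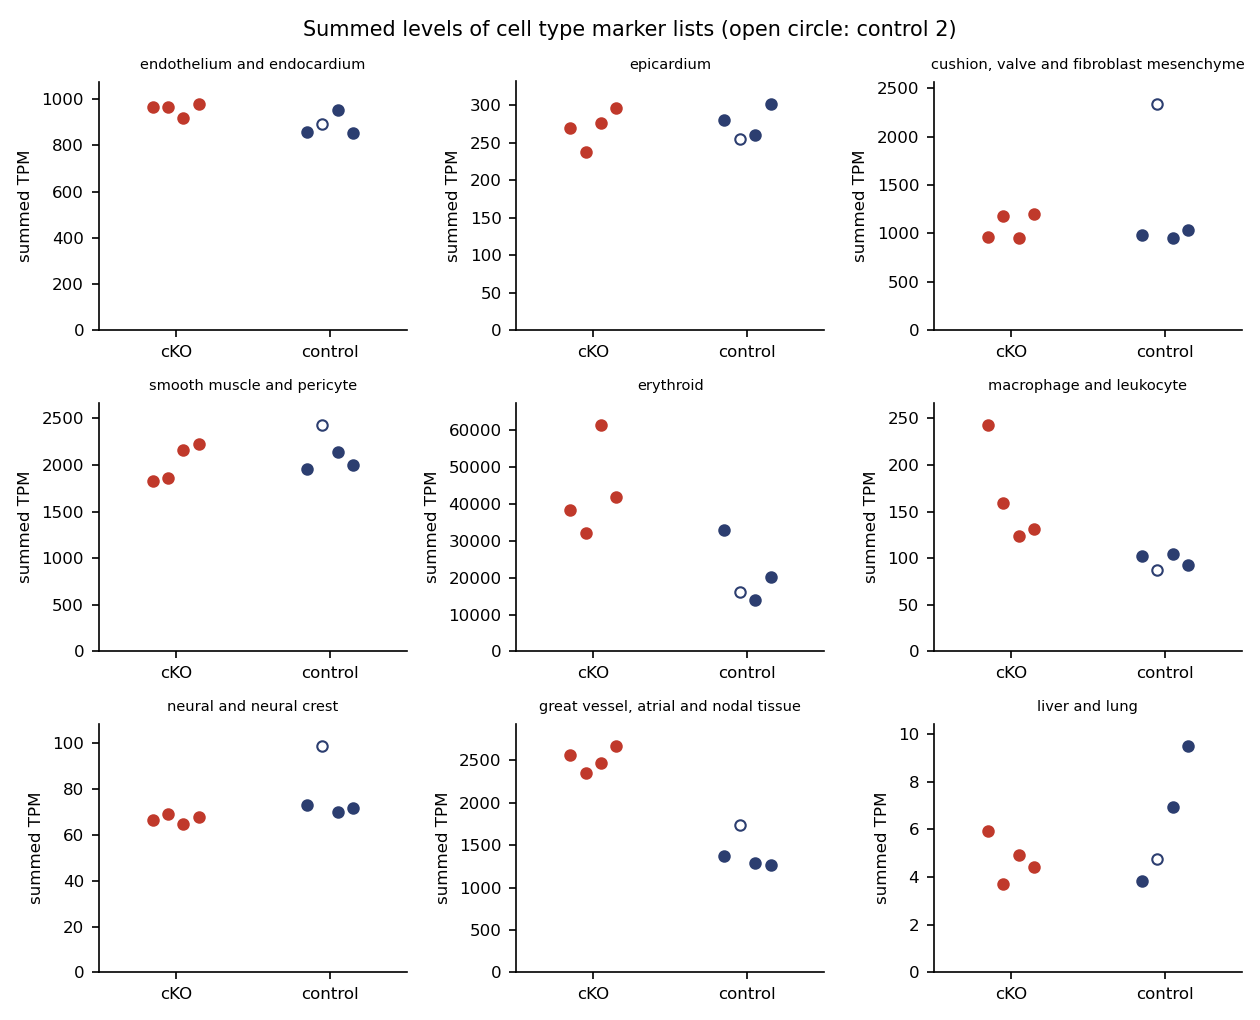
Summed TPM of 9 lists of cell type markers in the 4 cKO (left) and 4 control (right) right ventricle libraries, with control 2 as an open circle and each axis starting at 0. Control 2 stands at 2334 TPM for mesenchyme, where the other 7 libraries lie between 949 and 1198 TPM, and erythroid markers reach 61382 TPM in cKO 3.

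Some genes passed only without control 2. That this library stands apart in them follows largely from how they were chosen. The 8 rises with the smallest adjusted p among them were Txndc5, Cntfr, Creb3l2, Rcn3, Meg3, Fstl1, Arhgef26 and Gpc2, and in each of them control 2 was the highest library of all. Txndc5, a protein disulfide isomerase of fibroblasts and endoplasmic reticulum, had 104, 104, 102 and 106 TPM in the cKO and 79.9, 124, 79.1 and 77.9 TPM in controls. It changed by 0.23 with control 2 (adjusted p = 0.131) and by 0.38 without it (adjusted p = 1.98e-06). Cntfr, the receptor of ciliary neurotrophic factor, had 5.57, 4.82, 3.88 and 5.38 TPM in the cKO and 1.30, 6.97, 1.23 and 1.99 TPM in controls, and the change was 0.76 with control 2 (adjusted p = 0.203) and 1.59 without it (adjusted p = 6.26e-06).

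Falls of that kind included Mypn, a sarcomere protein, Aldh5a1, Ndufv1 of complex I, Acat1 and Fh1 of mitochondrial metabolism, Lclat1 and Zadh2. Mypn had 4.62, 4.52, 4.14 and 4.11 TPM in the cKO and 5.66, 3.70, 5.60 and 5.80 TPM in controls, with control 2 below all 7 other libraries, and changed by -0.27 with control 2 (adjusted p = 0.176) and by -0.42 without it (adjusted p = 3.14e-05). Fh1, the fumarase, had 204, 191, 184 and 207 TPM in the cKO and 247, 186, 246 and 210 TPM in controls, and changed by -0.16 with control 2 and -0.24 without it (adjusted p = 0.000291).

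The right ventricle responded differently from the left at 236 of 16448 genes (1.43%), by a test of the difference in cKO effect between the ventricles, and at 358 (2.15%) without control 2. The number depended on the method, from 27 and 46 with limma on log2 TPM and 64 with length-scaled counts to 466 with DESeq2. Same-numbered cKO libraries of the right and left ventricle deviated together (r across genes 0.28, 0.10, 0.28 and 0.25), which was not so for all controls (0.18, -0.12, 0.09 and 0.19), and with the number as a block across ventricles 196 genes were called. In the left ventricle 2017 genes (12.3%) were higher and 2199 (13.4%) lower. Of the right ventricle calls, 760 of 1007 higher genes and 534 of 689 lower genes were called in the same direction in the left ventricle, and 7 and 2 in the opposite one. Hey2 fell by 1.14 in the left ventricle, against a change of -0.04 in the right (difference left minus right -1.10, SE 0.08, adjusted p = 5.04e-06), and Mycn by 0.81 against -0.16 (difference -0.65, adjusted p = 0.000654). Irx4 changed by 0.03 in the right ventricle and -0.49 in the left (difference -0.53, adjusted p = 0.0133).

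Prdm16 itself fell by 0.75 in the right ventricle and by 1.19 in the left. The difference of -0.44 had an adjusted p of 0.0404 with all libraries, and leaving out any 1 right ventricle library except control 4 took it past the threshold (0.0503 without control 2, 0.0778 at most).

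Several genes changed more in the right ventricle than in the left. Dclk3, a doublecortin-like kinase, had 2.53, 2.14, 2.31 and 2.30 TPM in cKO and 0.448, 0.403, 0.421 and 0.596 TPM in control right ventricles, a rise of 2.33 against 1.24 in the left ventricle (difference -1.09, SE 0.15, adjusted p = 0.00176). Kcnk3 had 40.4, 45.5, 49.6 and 54.4 TPM in the cKO and 20.0, 13.4, 20.6 and 20.7 TPM in controls, and its rise of 1.29 stood against 0.41 in the left ventricle (difference -0.87, adjusted p = 0.00398). Efr3b fell by 1.36 in the right ventricle and by 0.65 in the left (difference 0.71, adjusted p = 0.00657). Its TPM were 4.17, 3.84, 2.77 and 4.21 in the cKO and 8.99, 10.0, 8.91 and 9.67 in controls, without overlap.

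Ccnd2 rose by 0.96 in the right ventricle and 0.65 in the left, a difference of -0.31 (adjusted p = 0.0389) that passed the threshold no longer without cKO 1, cKO 2, cKO 4 or control 4 (up to 0.0639), or with the block across ventricles (0.0526).

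More genes named here changed less in the right ventricle. Ryr3 rose by 2.50 in the right ventricle and 3.42 in the left (difference 0.93, adjusted p = 0.00657), the ribonuclease Rnase4 by 0.37 and 1.36 (difference 0.99, adjusted p = 0.000300), Slit3 by 0.48 and 1.04 (difference 0.56, adjusted p = 0.0138) and Sort1, a sorting receptor, by 0.30 and 0.69 (difference 0.39, adjusted p = 0.00162). Ckm fell by 0.92 in the right and 2.22 in the left (difference -1.30, adjusted p = 0.000893) and the water channel Aqp4 by 0.99 and 2.57 (difference -1.58, adjusted p = 0.000844). Lrtm1 fell by 1.71 and 3.88, and its difference of -2.17 (adjusted p = 0.0305) was lost without cKO 2, cKO 3 or cKO 4 (up to 0.0560) and with the block across ventricles (0.0526).

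The glutamine transporter Slc1a5 fell by 0.36 in the right ventricle and 1.18 in the left (difference -0.81, adjusted p = 0.000209), the glycogen binding protein Stbd1 by 0.38 and 1.11 (difference -0.73, adjusted p = 0.000830), Ndrg2 by 0.36 and 0.77 (difference -0.41, adjusted p = 0.00153), and Strip2, a scaffold of phosphatase complexes, by 0.14 and 0.63 (difference -0.49, adjusted p = 0.000799). For metabolism, Ppargc1a fell by 0.27 and 0.85 (difference -0.58, adjusted p = 0.00176), Eci1 by 0.28 and 0.75 (difference -0.47, adjusted p = 0.00176), and Aldh5a1 changed by -0.22 and -0.70 (difference -0.48, adjusted p = 0.0387, lost without any 1 cKO right ventricle, up to 0.0778). The right ventricle call of Strip2 itself held in only 2 of the 8 settings with 1 library left out, without control 1 and without control 2, with adjusted p up to 0.0989 in the others.

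**Figure D5:**
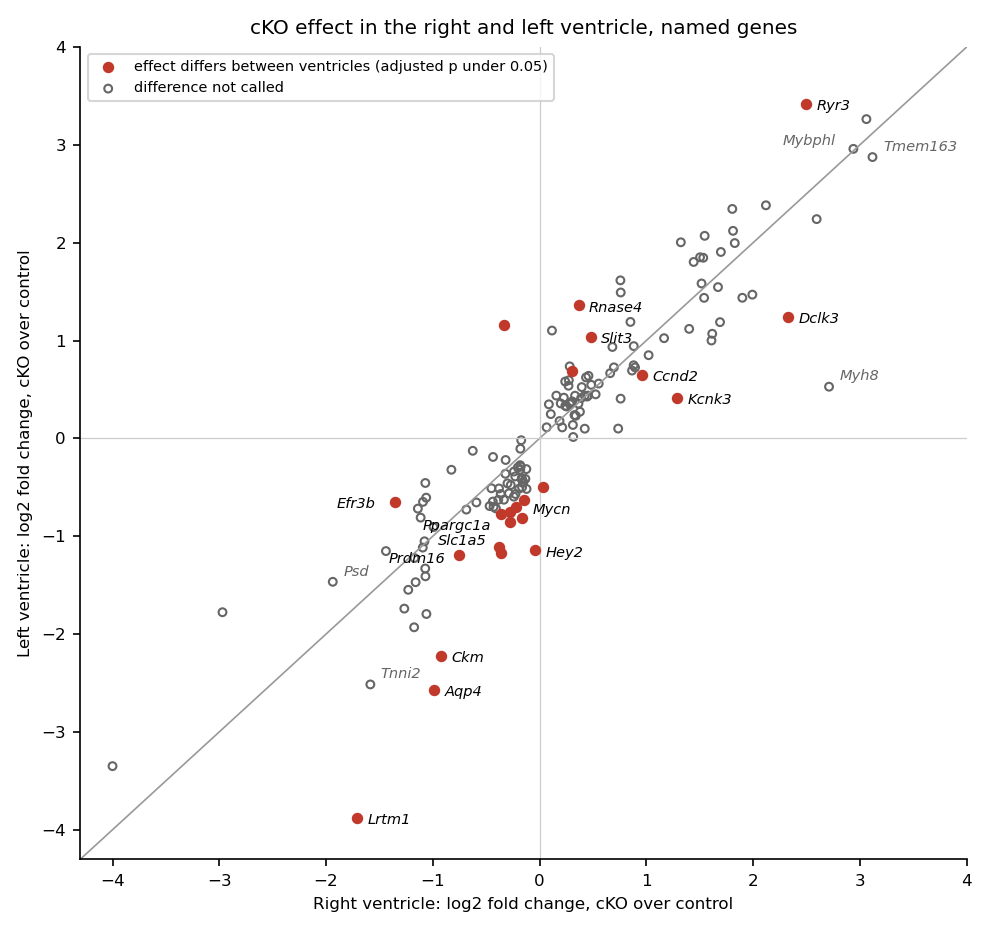
Log2 fold change, cKO over control, in the right ventricle (horizontal) and left ventricle (vertical) of the genes named in the text, with filled red points where the difference between ventricles passed an adjusted p of 0.05 and a diagonal where both are equal. Hey2 lies at -0.04 in the right and -1.14 in the left ventricle, while Mybphl lies on the diagonal at 2.94 and 2.96, and Dclk3, Kcnk3 and Efr3b changed more in the right ventricle.

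Whole hearts, whose libraries share none with the ventricles, gave a separate measure of the same genotype at the same age. Among genes tested in both, 373 of 16321 (2.29%) were higher and 397 (2.43%) lower in cKO whole hearts. Of the genes called higher in the right ventricle, 281 of 1006 (27.9%) were also called higher in whole hearts, and of those called lower, 209 of 689 (30.3%) were called lower. None was called in the opposite direction, and 936 and 628 had the same sign. Whole heart control 1 had the fewest reads of the 6 libraries, 38590751, and without it 637 of 16347 genes (3.90%) were higher and 638 (3.90%) lower, with 411 (40.9%) and 299 (43.4%) of the right ventricle calls among them. Of the genes called higher and lower in the right ventricle without control 2, 310 and 329 were called alike in whole hearts.

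The leading genes could be followed there one by one. Tmem163 rose by 2.49 in whole hearts (adjusted p = 4.38e-05), Ryr3 by 2.49 (adjusted p = 0.000128), Ppp1r17 by 2.33 (adjusted p = 2.69e-05) and Mybphl by 2.28 (adjusted p = 0.000104). All of the 20 largest rises in the right ventricle were called higher in whole hearts, with log2 fold changes from 0.97 for Lyz1 to 2.49. Of the 20 largest falls, 16 were called lower, Lrtm1 (-1.96, adjusted p = 0.00384) and Tnni2 (-1.62, adjusted p = 0.00143) furthest. Psd (-0.69, adjusted p = 0.0665), Fndc5 (-0.28, adjusted p = 0.0965), Grhl3 (-0.53, adjusted p = 0.229) and Apln (-0.38, adjusted p = 0.303) were not called. Dclk3 rose by 1.50 in whole hearts (adjusted p = 0.00252).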

How the data were processed

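Total RNA was extracted with TRIzol, with RNA integrity numbers of 6.1 to 10, and made into libraries with a TruSeq stranded mRNA kit, per the labels' protocols. The authors quantified transcripts with Salmon 1.2.1, and DESeq2 1.22.2 and the builds GRCm38.p6 and mm10 are named, per the submitters' processing notes. The deposited tables hold, per transcript, estimated counts and TPM. Here both were summed per gene (GENCODE M21), matching 140137 of 140658 transcripts, and the expected counts were rounded to whole numbers. The unmatched 521 transcripts held at most 0.204% of reads.

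The main test was edgeR 4.0.16 (R 4.3.3), TMM scaling, filterByExpr, a quasi-likelihood fit of 16 ventricle libraries with 4 group means, and Benjamini-Hochberg adjustment over all genes, with calls at 0.05. Whole hearts were fitted alone. In simulated counts of 16271 genes for cKO against control right ventricles, 91% of 100 genes changed by 1 and 76% of 100 changed by 0.5 (log2) were called, and 0.0622% of unchanged genes. These rates describe the simulated counts only. They were not measured on the real libraries, where a control stood apart from the others, so they give no error rate for the calls reported here. Two-sided exact permutation tests were used for shares of reads. Alternatives used DESeq2 1.42.0 and limma 3.58.1.

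Genes were named as the targeted gene, 14 cardiac genes, the 20 largest rises and falls (protein-coding, called with and without control 2, mean log2 CPM of at least 2, no overlap of TPM), the 10 smallest p-values of the difference between ventricles among genes called in the right ventricle, 8 genes a direction called only without control 2, and up to 4 called members of each of 30 gene lists and 9 marker lists, plus members a list is known by. Some genes that this rule names are not reported here. The members and lists were chosen with earlier results of these data known. Depth limits low genes, and intervals on shares of reads were not computed.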

Additional observations from a re-analysis of the deposited data

Results flagged for a closer look

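In 334 groups of 4 values looked at, 27 held a library that stood apart, and 17 of these were control 2. Chance flags about 1 in 20 groups, but 5 of the 17 are genes chosen because they were called only without control 2, so the share is not set against chance. Control 2 stood apart in the summed TPM of mesenchymal markers (2334, others 949 to 1038) and of neural markers (98.7, others 70.1 to 73.0). It was the highest control, in TPM, for Hand1 (12.2), Hand2 (51.4), Dkk3 (38.3), Psd (17.7), Txndc5 (124), Cntfr (6.97), Fstl1 (354), Fzd1 (21.6), Ntm (23.0), Nrg2 (0.859) and Rgs5 (6.02). It was the lowest control for Mypn (3.70), Zadh2 (20.9), Kcnk3 (13.4) and Pdk3 (60.9).

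Among the other controls, control 1 was highest for Myh7 (4356 TPM), control 3 for Agtr1a (10.6) and Crat (68.0), and control 4 was lowest for Myh8 (0.0636). Among the cKO libraries, cKO 1 was lowest for Myh6 (534 TPM) and highest for Stmn4 (14.7), cKO 3 was lowest for Strip2 (30.3) and highest for Hadhb (165), and cKO 4 was highest for Myl1 (251) and lowest for Cdkn1c (430).

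The cKO effect differed between the ventricles, by the test of the difference itself, for 23 of the genes named. The left minus right difference in log2 fold change was negative for Lrtm1 (-2.17), Aqp4 (-1.58), Ckm (-1.30), Hey2 (-1.10), Dclk3 (-1.09), Kcnk3 (-0.87), Slc1a5 (-0.81), Stbd1 (-0.73), Mycn (-0.65), Ppargc1a (-0.58), Irx4 (-0.53), Strip2 (-0.49), Aldh5a1 (-0.48), Eci1 (-0.47), Prdm16 (-0.44), Ndrg2 (-0.41) and Ccnd2 (-0.31). It was positive for Kcnj8 (1.49), Rnase4 (0.99), Ryr3 (0.93), Efr3b (0.71), Slit3 (0.56) and Sort1 (0.39).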

How the results depend on the processing

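Of 156 genes named, 126 were called, and 94 of these kept their direction and call under every alternative tried, 112 without each right ventricle library in turn and 124 without control 2. Length-scaled counts lost 23 of the 126 calls, and limma on log2(TPM + 0.1) and log2(TPM + 1) lost 25 and 27. Calls kept without each library but lost in 3 of 23 alternatives were Prdm16, Mki67, Ppargc1a, Ppara, Crat, Trdn, Pam, Fgfr1, Slc1a5 and Stmn4. Of the same kind, Fzd1 was lost in 4, Vegfa, Zmat3 and Rgs5 in 2, and Rrm1, Scn4b, Adm and Rnase4 in 1. The count of 1696 calls (1007 higher, 689 lower) was 1052 (661 and 391) with right ventricle libraries alone, 831 (530 and 301) with length-scaled counts, 741 (467 and 274) with limma on log2(TPM + 0.1) and 721 (452 and 269) on log2(TPM + 1). Lower calls numbered 1097 with voom weights and 1185 without control 2. Leaving out each library gave 1290 to 2418 calls, 815 to 1233 higher and 472 to 1185 lower. The 236 differences between ventricles became 466 with DESeq2, 64 with length-scaled counts, 27 and 46 with limma at pseudocounts of 0.1 and 1, 414 with voom, and 136 (without cKO 4) to 358 (without control 2) with a library left out. Of lower calls, 329 were also lower in whole hearts when control 2 was left out and 299 without whole heart control 1, against 209. The difference in mitochondrial share ranged from -0.91 to -0.63 percentage points with a library left out, each at the smallest exact p then possible, 0.0571, and the haemoglobin p from 0.0571 to 0.114.

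Direction turned only for genes not called: Nppb (-0.025 without cKO 3, in a range to 0.214 with a library left out), Irx4 (-0.044 without control 2, in a range to 0.099, -0.042 with right ventricles alone without control 2, -0.015 with voom), Hand2 (-0.004 without control 1) and Gpc2 (-0.067 with length-scaled counts, -0.039 with limma at either pseudocount). The cause was not tested.

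The replicate block gave 1586 calls (942 and 644) in the joint fit, 926 (578 and 348) with right ventricles alone, and 152 differences between ventricles. Deviations of same-numbered cKO and control right ventricles correlated at 0.08, 0.18, 0.14 and -0.06, so the numbers were not shown to pair them. A block of number across ventricles, chosen after seeing the data, gave 196 differences, and Lrtm1 and Ccnd2 were then at 0.0526.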
